A study of Caenorhabditis elegans with 104 samples.

Results

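The 54 genes described here encode cytosolic ribosomal proteins of Caenorhabditis elegans, 31 of the small subunit and 23 of the large subunit. They were taken by sequence name as the genes long called rps-0 to rps-30 and rpl-1 to rpl-23, all of which were on the array. They make up 54 of 18889 genes measured and 60 of 22490 probes. For 49 of them 1 probe was present, and for the other 5 several probes were averaged. Some names have changed, and the current ones are used: rps-0 is rpsa-1, rps-1 is rps-3A, rps-22 is rps-15A, rps-30 is fau-1, rpl-1 is rpl-10a, rpl-2 is rpl-8, rpl-10 is rpl-10L, rpl-16 is rpl-13A and rpl-20 is rpl-18A.

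RNA of single whole worms of the wild-type strain N2 was measured on 2-colour microarrays, 1 worm per array. The worms belonged to 1 cohort from a 2-hour egg lay at 20 °C, kept on bacteria on 7 plates, and each was filmed on a plate with no bacterial lawn before it was frozen. There were 13 worms aged 4 days, 17 at each of 8, 12, 14 and 16 days, 14 at 20 days and 9 at 24 days. All ages shared the Cy3-labelled comparison RNA, a pool of 15 N2 worms aged 4 days, while each worm's own RNA carried Cy5. Worm and pool RNA were each amplified linearly over 2 rounds, and the submitters left out samples that did not pass their quality check.

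The ribosome joins amino acids into protein. Its small subunit reads the messenger RNA in the decoding centre, and its large subunit forms the peptide bond and passes the growing chain through an exit tunnel. Each ribosome carries a single copy of nearly every ribosomal protein, so their genes are known in many species for being expressed together, and in worms the germline and the intestine are heavy users of ribosomes. The positions in the ribosome given below come from structures of yeast and human ribosomes.

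Values are log2 of worm over pool, the usual red over green of such arrays. The log base and the direction are not stated for these files, and a reversed sign would turn every direction below. Each age was 1 harvest, so age and the day of harvest cannot be told apart. Each p-value rests on how far single worms of this cohort scattered. The RNA came from whole animals, in which fewer cells of a type and less RNA per cell cannot be told apart. Between 9 and 464 probes per array had no value, while all 54 genes had a value in every worm. Medians of the arrays lay between -0.034 and 0.009, so a difference here is relative to the bulk of the genes on the array. Markers of the main tissues were measured, among them unc-54 of muscle, unc-119 of neurons, ges-1 of intestine and rme-2 of oocytes.

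In the mean of each age, all 54 transcripts were lower in worms aged 8 days than in worms aged 4 days. The median of these differences was -0.94 on the log2 scale, beside -0.00 over all genes. Between the median worms of both ages, taken gene by gene, it was -0.75, with 53 of the 54 negative. With a linear model over all ages in limma and Benjamini-Hochberg adjustment over all 18889 genes, 34 of the 54 fell (adjusted p under 0.05) and 0 rose, against 6.14% of all genes that fell. At an unadjusted p under 0.05, 46 were lower and 0 higher. The differences ran from -1.87 for rps-17 to -0.19 for rps-24. Of the small-subunit genes 20 of 31 fell, with a median of -0.98, and of the large-subunit genes 14 of 23 fell, with a median of -0.86. The plot of the change of each transcript shows the whole list.

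How many genes passed depended on the worms aged 4 days, which varied most. With 1 of the 30 worms of both ages left out in turn, 20 to 44 genes fell and all 54 stayed negative. The lowest counts were 20 without day 4 worm 8 and 22 without day 4 worm 3, which had the highest ribosomal values of their age (worms are numbered within an age by the order of their records). When the spread was estimated from the worms of these ages alone, 9 genes fell: rps-17, rps-15A, rpl-12, rps-13, rps-26, rps-18, rps-8, rpl-11.1 and rpl-15. The SE given with each difference come from 1 spread over all ages. They are too small for a gene that varied far more at day 4, such as rps-18 (SD 1.78 at day 4 and 0.75 at day 8).

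**Figure D1:**
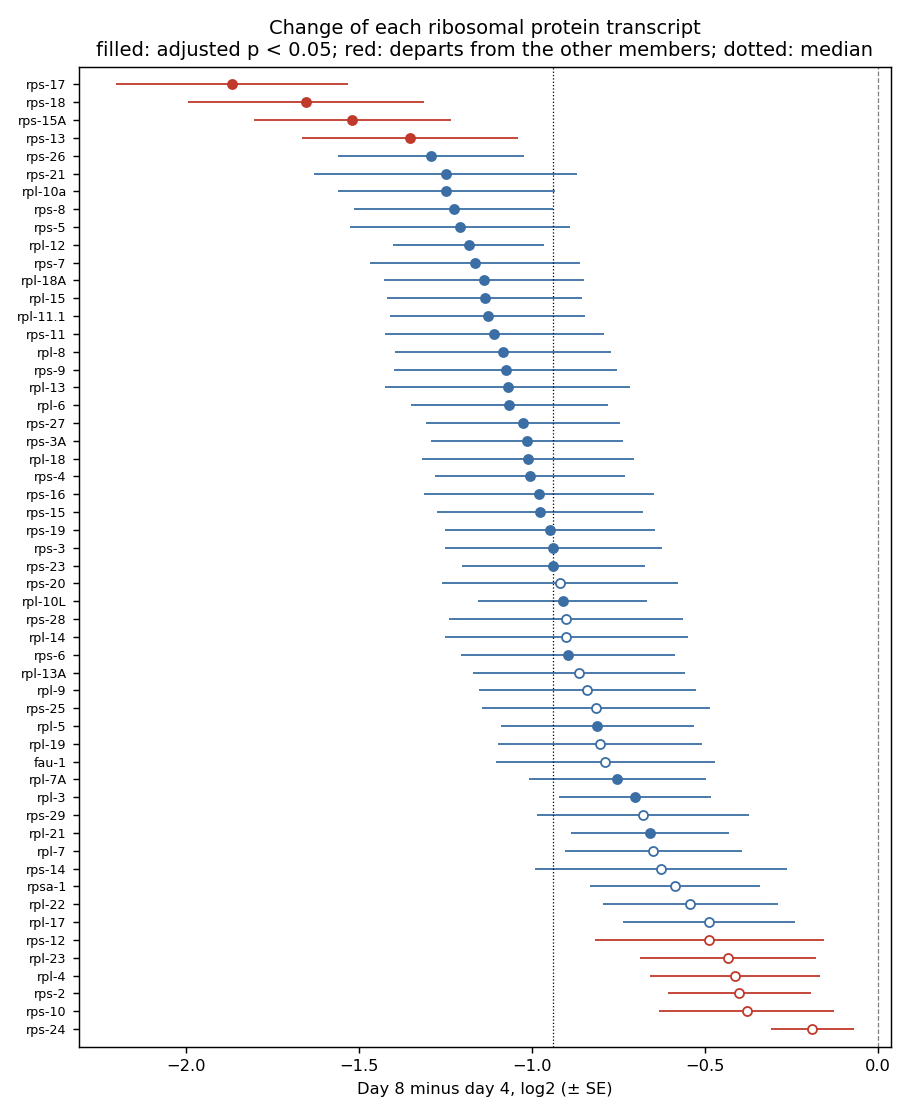
Difference of each of the 54 transcripts between worms aged 8 days (n = 17) and 4 days (n = 13), on the log2 scale, with the standard error of the fit. Every point lies left of 0, filled points passed the test (34 genes), and red points departed from the mean of the other ribosomal genes (10 genes), from rps-17 at -1.87 to rps-24 at -0.19.

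The 6 transcripts with the most negative difference were all of the small subunit, and the next was rpl-10a of the large subunit, at -1.25. That of rps-17 (T08B2.10), a protein of the small-subunit head, lay at -3.0, -1.70 and -0.23 (lowest, median and highest worm) at day 8, against -1.69, 0.13 and 2.74 at day 4. Its difference was -1.87 ± 0.34 (SE, limma, adjusted p = 1.82e-05). All 17 worms aged 8 days were below the pool, while the worms aged 4 days lay on both sides of it and the groups overlapped. For rps-18 (Y57G11C.16), whose protein sits in the head near the large subunit, the values were -1.66, -0.44 and 0.98 at day 8, against -1.07, 0.50 and 4.26 at day 4, a difference of -1.65 ± 0.34 (limma, adjusted p = 0.000217). The highest worm at day 4 stood far above every worm at day 8. The transcript of rps-15A (F53A3.3), a core protein of the small subunit's body and platform, had -2.42, -1.35 and 0.29 at day 8, against -2.23, -0.21 and 2.44 at day 4, a difference of -1.52 ± 0.29 (limma, adjusted p = 4.22e-05). Its lowest worms were alike at both ages, while the median and the highest worm were lower at day 8.

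The transcript of rps-13 (C16A3.9), also of the platform side, lay at -1.63, -0.82 and 1.4 at day 8, against -1.09, 0.42 and 3.28 at day 4, and fell by 1.35 (SE 0.31, limma, adjusted p = 0.00114). That of rps-26 (F39B2.6), a protein beside the messenger RNA exit, lay at -1.91, -0.70 and 0.31 at day 8, against -0.89, 0.29 and 3.35 at day 4, and fell by 1.29 (SE 0.27, limma, adjusted p = 0.000265). Both medians were below the pool at day 8 and above it at day 4. The widest spread of these 6 was in rps-21 (F37C12.11), with -2.16, -0.56 and 1.56 at day 8, against -1.39, 0.26 and 3.64 at day 4, and a difference of -1.25 ± 0.38 (limma, adjusted p = 0.0181). In all 6 the ranges of both ages overlapped.

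Genes for the functional centres of the ribosome fell too, with calls that depended on how the spread was estimated. Of those named in this paragraph, only rpl-11.1 passed with the spread taken from the worms of these ages alone. With 1 weight for all arrays of an age, rpl-3 and rpl-5 did not pass (limma, adjusted p = 0.0616 and 0.0996). In the decoding centre, rps-23 differed by -0.94 ± 0.26 (limma, adjusted p = 0.00969) and rps-15, whose tail reaches towards it, by -0.98 ± 0.30 (adjusted p = 0.0181). Around the peptidyl transferase centre, where the peptide bond is made, rpl-8 differed by -1.08 ± 0.31 (adjusted p = 0.0115), rpl-10L by -0.91 ± 0.24 (adjusted p = 0.00612) and rpl-3 by -0.70 ± 0.22 (adjusted p = 0.0222). The partners that carry the smallest ribosomal RNA of the large subunit into the particle, rpl-5 and rpl-11.1, differed by -0.81 ± 0.28 and -1.13 ± 0.28 (adjusted p = 0.0424 and 0.0029).

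The transcript of rps-6, the protein that S6 kinase phosphorylates, differed by -0.90 ± 0.31 (limma, adjusted p = 0.0445). It did not pass with 1 weight for all arrays of an age (limma, adjusted p = 0.0984) or with the spread of these ages alone. Among large-subunit genes the smallest p belonged to rpl-12 (JC8.3), which encodes the base of the stalk where translation factors dock. It had -1.13, -0.45 and 0.95 at day 8, against -0.43, 0.79 and 2.33 at day 4, and fell by 1.18 (SE 0.22, adjusted p = 3.27e-05). Of the proteins that line or surround the exit tunnel, rpl-4 (-0.41 ± 0.25), rpl-17 (-0.49 ± 0.25) and rpl-19 (-0.80 ± 0.29) did not pass, with adjusted p of 0.312, 0.214 and 0.0603. Whether tunnel genes differ from the other ribosomal genes as a group was not tested.

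The 20 genes that did not pass were rps-2, rps-10, rps-12, rps-14, rps-20, rps-24, rps-25, rps-28, rps-29, rpsa-1 and fau-1 of the small subunit and rpl-4, rpl-7, rpl-9, rpl-13A, rpl-14, rpl-17, rpl-19, rpl-22 and rpl-23 of the large subunit. Several were not far from passing: rpl-13A, a large-subunit surface protein, differed by -0.86 ± 0.31 (limma, adjusted p = 0.0507). The 6 least negative were rps-24, rps-10, rps-2, rpl-4, rpl-23 and rps-12. For rps-10 (D1007.6), a protein near the messenger RNA entry, the lowest, median and highest worms were at -2.0, -0.63 and 1.22 at day 8, against -1.82, -0.65 and 1.42 at day 4. These ranges were nearly the same, and the difference of -0.38 ± 0.25 did not pass (limma, adjusted p = 0.382).

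For rps-2 (C49H3.11), at the messenger RNA entry, the worms lay at -1.30, -0.52 and 0.52 at day 8, against -1.33, -0.18 and 1.32 at day 4, a difference of -0.40 ± 0.21 (limma, adjusted p = 0.224). The large-subunit gene rpl-23 (B0336.10) encodes a protein of the face that meets the small subunit, and had -0.77, 0.03 and 1.39 at day 8, against -1.10, 0.47 and 2.53 at day 4, a difference of -0.43 ± 0.25 (adjusted p = 0.303). The tunnel gene rpl-4 (B0041.4) had -1.36, -0.60 and 0.74 at day 8, against -1.63, -0.28 and 1.2 at day 4. In each of these the ages overlapped over most of their range. The transcript of rps-12 (F54E7.2) was above the pool in the median worm of both ages, at 0.51 at day 8 (range -0.48 to 2.41), against 0.85 at day 4 (range -0.38 to 3.67), a difference of -0.49 ± 0.33 (adjusted p = 0.391).

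The transcript of rps-24 (T07A9.11) barely moved at any age. Its worms lay at -1.15, -0.42 and 0.46 at day 8, against -0.77, -0.28 and 0.39 at day 4, and its difference was -0.19 ± 0.12 (limma, adjusted p = 0.348). Its age means stayed between -0.45 and -0.25, and no difference among ages passed the F test (adjusted p = 0.715). It rests on 1 probe, and signal intensities were not used here.

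To see which transcripts departed from the common fall, each gene was set against the mean of the other ribosomal genes on the same array. By this measure 10 of the 54 departed between days 8 and 4, 4 with a larger and 6 with a smaller fall (limma, adjusted p under 0.05). The same test called 58.8% of all genes, since a gene that does not share the fall departs from it. With so many called, the adjustment over all genes is a lenient bar for the 54. At an unadjusted p under 0.05, 5 had a larger and 7 a smaller fall. No adjustment over the 54 alone was made. The larger falls were those of rps-17, by a further -0.96 ± 0.24 (adjusted p = 0.00103), rps-18, by -0.74 ± 0.19 (0.00122), rps-15A, by -0.60 ± 0.16 (0.00237) and rps-13, by -0.43 ± 0.18 (0.0305). All 4 encode small-subunit proteins. The smaller falls were those of rps-24, by 0.75 ± 0.27 (adjusted p = 0.0161), rps-10, by 0.56 ± 0.17 (0.00522), rps-2, by 0.54 ± 0.19 (0.016), rpl-4, by 0.52 ± 0.17 (0.00734), rpl-23, by 0.50 ± 0.16 (0.00881) and rps-12, by 0.45 ± 0.20 (0.0422). They belong to both subunits.

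For rpl-22 (C27A2.2) the average hides 2 probes that disagree. One probe differed by -1.43 ± 0.33 between days 8 and 4 (limma on single probes, adjusted p = 0.00101) and the other by 0.35 ± 0.35 (adjusted p = 0.612). Their mean lay at -2.78, -0.24 and 0.68 at day 8, against -0.86, 0.25 and 1.87 at day 4, and its difference of -0.54 ± 0.25 did not pass (adjusted p = 0.163). The value of rpl-22 is therefore uncertain at all ages.

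In their mean, the worms aged 12 days were still low. Their median worm was close to that of day 4: the mean over the 54 genes stood at -0.11 in it, against -0.02 at day 4. Against day 4, all 54 differences were negative, with a median of -0.77, and 28 of the 54 fell and 0 rose in limma (34 and 0 at an unadjusted p under 0.05), against 2125 of the 18889 genes that fell and 22.7% of all genes called in either direction. The comparisons of days 8 and 12 share the worms aged 4 days. Beside its day 8 value of -1.87, rps-17 stood at -1.50 at day 12, rps-18 at -1.13 beside -1.65, and rpl-12 at -0.49 beside -1.18. For 13 genes the day 12 mean was below that of day 8, most of all for rpl-11.1, which stood at -1.51 ± 0.28 at day 12 (limma, adjusted p = 1.37e-05), beside -1.13 at day 8.

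Between days 12 and 8 only rpl-12 rose among the 54, by 0.69 ± 0.20 (limma, adjusted p = 0.011), against 7.76% of all genes that rose. Its worms lay at -0.70, 0.37 and 1.69 at day 12, against -1.13, -0.45 and 0.95 at day 8, so its median worm crossed the level of the pool. The next differences were 0.58 ± 0.27 for rpl-19, 0.54 ± 0.24 for rpl-7 and 0.54 ± 0.33 for rpl-13, with adjusted p of 0.15, 0.11 and 0.293. Of the 54 differences 41 were positive and 13 negative, with a median of 0.23. At an unadjusted p under 0.05, 4 were higher and 0 lower. The 2 probes of rpl-12, fitted singly, differed by 0.61 and 0.77 (limma on single probes, adjusted p = 0.107 and 0.0349), so 1 of them passed.

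Day 8 was also set against the mean of days 4 and 12, which asks whether it lies below the average of the ages around it. All 54 differences were negative, with a median of -0.59, and 10 fell, against 4.1% of all genes. The difference between days 8 and 4 is part of this measure, so a negative value does not show a rise by day 12. It was negative also for the 13 genes whose mean was lower at day 12 than at day 8. The 10 that passed were rps-17 (-1.12), rps-18 (-1.09), rps-13 (-0.94), rpl-12 (-0.94 ± 0.18, limma, adjusted p = 0.000102), rps-26 (-0.91), rps-15A (-0.91), rpl-10a (-0.82), rps-4 (-0.75), rps-7 (-0.75) and rps-27 (-0.74). The count is unstable: it was 25 without day 4 worm 5 or without day 8 worm 13, 20 without day 4 worm 4, 18 without day 4 worm 13, 17 without day 8 worm 1, 16 without day 4 worm 12, 17 with the probes measured on every array, and 6 with the spread taken from these ages alone.

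**Figure D2:**
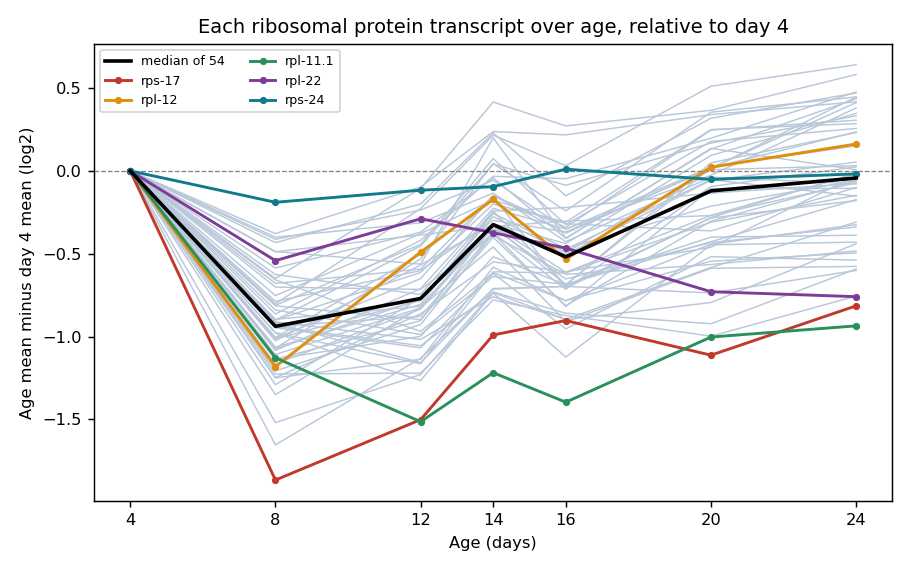
Mean of each transcript at each age minus its mean at day 4 (log2), against age in days, with 1 grey line per gene, the median of the 54 in black and 5 genes in colour. The median line is at -0.94 at day 8, -0.77 at day 12, -0.32 at day 14, -0.52 at day 16, -0.12 at day 20 and -0.04 at day 24, while rpl-11.1, rps-17 and rpl-22 end lower and rps-24 stays near 0.

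From day 14 the age means of the transcripts stood nearer to those of day 4. The median worm gave another order: its mean over the 54 genes was 0.20, 0.19, 0.31 and 0.51 at days 14, 16, 20 and 24, above -0.02 at day 4. Relative to day 4 the median difference was -0.32 at day 14, -0.52 at day 16, -0.12 at day 20 and -0.04 at day 24. Among the 54, the number lower was 6 at day 14, 11 at day 16, 6 at day 20 and 1 at day 24, against 9.64%, 9.89%, 10.5% and 8.14% of all genes. None was higher at any of them in limma, also at an unadjusted p under 0.05. At day 24 the 1 gene was rpl-11.1, at -0.94 ± 0.33 (limma, adjusted p = 0.0381). Its worms lay at -1.82, 0.19 and 0.95 at day 24, against -0.65, 0.57 and 3.01 at day 4, with much overlap. With the spread taken from these ages alone, 0 genes passed, and after quantile normalization 2 did. Of the other differences at day 24, 23 of the 54 were positive, and rps-17 stood at -0.81 ± 0.39 (adjusted p = 0.161).

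Relative to day 8, 21 of the 54 were higher at day 14, 8 at day 16, 26 at day 20 and 28 at day 24, against 8.55%, 7.71%, 9.73% and 7.75% of all genes. None was lower in limma, also at an unadjusted p under 0.05. The medians were 0.67, 0.43, 0.74 and 0.92 in that order of age. The largest differences between days 24 and 8 were those of rpl-13 (1.52 ± 0.40, limma, adjusted p = 0.00363), rps-18 (1.48 ± 0.38, adjusted p = 0.00328) and rpl-8 (1.46 ± 0.35, adjusted p = 0.00129). The worms of rpl-13 lay at -0.52, 0.76 and 1.96 at day 24, against -2.41, -0.65 and 1.36 at day 8. The smallest p was again that of rpl-12, at 1.35 ± 0.24 (adjusted p = 1.98e-05), with 0.30, 1.12 and 1.84 at day 24, against -1.13, -0.45 and 0.95 at day 8, so that all 9 worms aged 24 days were above the pool. The least change was in rpl-21 (0.16), rps-24 (0.17), rpl-11.1 (0.19) and rpl-22, the 1 gene with a negative difference (-0.22 ± 0.28, adjusted p = 0.696).

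No step between successive later ages passed on its own. Among the 54 genes 0 were called by limma between days 14 and 12, 16 and 14, 20 and 16, or 24 and 20, against 0%, 0.0159%, 0.254% and 0% of all genes in either direction. At an unadjusted p under 0.05 there were 7 higher, 1 lower, 7 higher and 0 in that order. The return after day 8 passed the test over longer spans, as given above.

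Over all 7 ages, 37 of the 54 genes differed by the moderated F test, against 33% of all genes. With a straight line over age, 10 rose and 1 fell, against 13.7% rising and 14.2% falling among all genes, so the share that rose was near that of the array as a whole. The steepest rise was in rpl-19, at 0.0559 per day (limma, adjusted p = 0.0013), and rpl-22 fell by 0.0309 per day (adjusted p = 0.0364). The line depends on which end is kept: without the worms aged 4 days 38 genes rose, and without those aged 8 days 0 did.

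The pool held worms of the same age as the day 4 group, and yet 29 of the 54 transcripts were higher and 1 lower in the single worms aged 4 days than in the pool. Of all genes 7.89% were higher, and 18.1% were called in either direction. Not all of these worms were above the pool: the mean over the 54 genes was above it in 6 of the 13, and the median worm stood at -0.02. Over the genes, the median difference from the pool was 0.61. It was largest for rps-16 (1.93 ± 0.25, limma, adjusted p = 2.46e-09), rps-25 (1.61 ± 0.25) and rps-14 (1.6 ± 0.27), all of the small subunit. It was smallest for rpl-7 (-0.37 ± 0.19), rpl-13A (-0.33 ± 0.23) and rps-24 (-0.26 ± 0.09), of which rps-24 passed (adjusted p = 0.0304). The pool enters every array with 1 dye, so its own spread and a dye effect of each probe cannot be told apart from this difference. Both cancel when ages are compared. The SE, the p-values and the count of 29 rest on 1 spread over all ages. The median SD of the 54 was 1.28 at day 4, and between 0.57 and 0.83 at the later ages. For genes that varied more at day 4 than later, these SE are therefore too small, and the count of 29 may be too high. How many would pass with the spread of the worms aged 4 days alone was not tested.

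At day 8, 22 were lower and 5 higher than the pool, against 16% and 14.2% of all genes. At day 12, 15 of the 54 were lower and 6 higher, against 19.7% and 19.5%. Taken in either direction the share was near the 39.2% of all genes, but more of the 54 were lower than higher. At day 24, 1 was lower and 20 higher, against 15.9% and 14.2%.

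The ribosomal transcripts moved together from worm to worm. The mean over the 54 genes was computed for each worm, with no test since it is a score over the list. It lay at 0.59 ± 1.15 at day 4 (SD, n = 13), -0.33 ± 0.60 at day 8 (n = 17), -0.14 ± 0.67 at day 12 (n = 17), 0.26 ± 0.48 at day 14 (n = 17), 0.06 ± 0.55 at day 16 (n = 17), 0.39 ± 0.43 at day 20 (n = 14) and 0.54 ± 0.72 at day 24 (n = 9). The lowest, median and highest worms were at -1.13, -0.45 and 1.04 at day 8, against -1.12, -0.02 and 2.71 at day 4. The lowest worms of both ages were alike, while the median and the highest worm were lower at day 8.

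**Figure D3:**
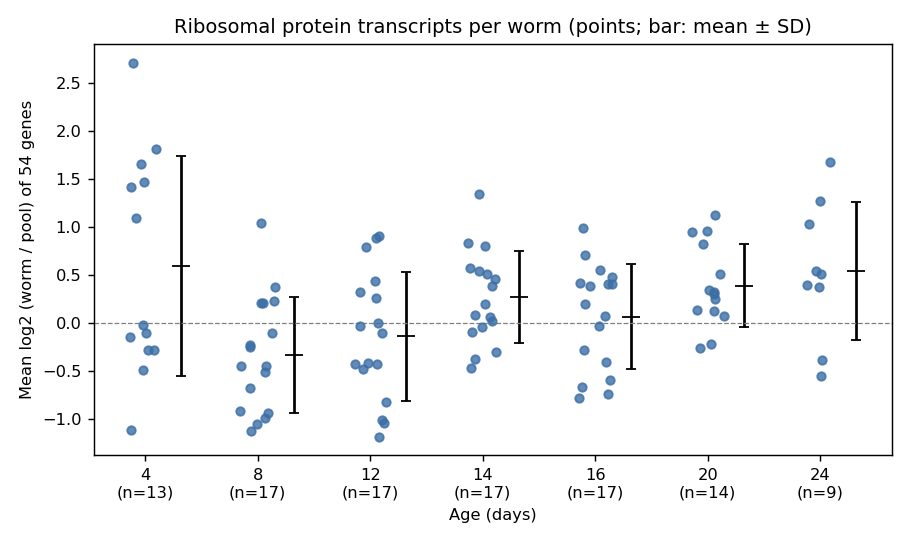
Mean log2 ratio of worm over pool across the 54 ribosomal protein genes, 1 point per worm, by age in days, with bars for the mean and SD of each age. At day 4 there are 7 worms between -1.12 and -0.02 and 6 between 1.09 and 2.71 with none between, while 16 of 17 worms aged 8 days lie at 0.37 or lower.

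The 13 worms aged 4 days lay in a lower and a higher run. Of these 7 lay at -1.12, -0.49, -0.28, -0.28, -0.15, -0.11 and -0.02, and 6 at 1.09, 1.42, 1.47, 1.66, 1.81 and 2.71. The empty stretch of 1.11 between them was wider than any at the other ages, where the widest were 0.67 at day 8, 0.35 at day 12, 0.51 at day 14, 0.28 at day 16, 0.31 at day 20 and 0.77 at day 24. In each of the 6 high worms 51 to 53 of the 54 transcripts were above the pool, and in the other 7 worms 1 to 29 were. All 6 stood above the highest worm aged 8 days (1.04). The 7 low worms lay within the range of the worms aged 8 days (-1.13 to 1.04). Day 8 was not set against either run alone. At day 24, 3 of 9 worms had a mean above 1, and at days 8, 14 and 20 there was 1 such worm each, with 0 at days 12 and 16.

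Other lists in the same worms give a setting for these values. Day 4 worm 8, the highest at 2.71, had a mean of 2.97 over a list of further ribosomal protein genes, 1.06 over mitochondrial ribosomal protein genes, -1.42 over oocyte and eggshell genes and -0.71 over body wall muscle genes. Day 4 worm 5, the lowest at -1.12, had -1.03, -0.21, -0.35 and 0.58 over these lists. The high worm was thus the lowest of its age in oocyte and in muscle genes, while the low worm was the highest in muscle genes. The part of tissue makeup in the split was not tested.

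The spread between worms was largest at day 4. The median SD of the 54 transcripts was 1.28 at day 4, where that of all genes was 0.83 and 49 of the 54 lay above it. It was 0.75 at day 8, 0.79 at day 12, 0.57 at day 14, 0.68 at day 16, 0.57 at day 20 and 0.83 at day 24, beside 0.78, 0.74, 0.72, 0.74, 0.69 and 0.66 for all genes. At day 24 the ribosomal transcripts again varied more than most genes, with 46 of the 54 above the median gene. At day 12, 32 were above it, and at days 14 and 20 only 9 were.

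At day 4 the largest SD were those of rps-21 (1.86), rps-18 (1.78) and rpl-13 (1.61), and the smallest those of rps-24 (0.35), rpl-12 (0.75) and rpl-3 (0.76). At day 8 they were largest for rps-14 (1.07), rpl-13 (1.02) and rpl-14 (0.99), and smallest for rps-24 (0.40), rpsa-1 (0.51) and rps-2 (0.52). Tested on each worm's absolute deviation from the mean of its age, 17 of the 54 were less spread at day 8 than at day 4, against 1.44% of all genes. The SD of rps-18, the largest of these changes, was 0.75 at day 8, against 1.78 at day 4 (limma, adjusted p = 0.00208).

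Fewer transcripts pass if the deviation is taken from the median worm. The number less spread than at day 4 was then 0 at day 8 (39 at an unadjusted p under 0.05), 3 at day 12, 24 at day 14, 10 at day 16, 17 at day 20 and 0 at day 24 (27 at an unadjusted p under 0.05). With the mean it was 20 at day 12, 43 at day 14, 28 at day 16, 35 at day 20 and 9 at day 24, against 3.66%, 5.45%, 3.92%, 3.64% and 1.62% of all genes. With the median, the shares of all genes were 0%, 0.651%, 1.48%, 0.895%, 0.614% and 0.0318% over days 8 to 24. So the lower spread held by both measures at days 12 to 20 for a part of the transcripts, and at days 8 and 24 by the mean alone.

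**Figure D4:**
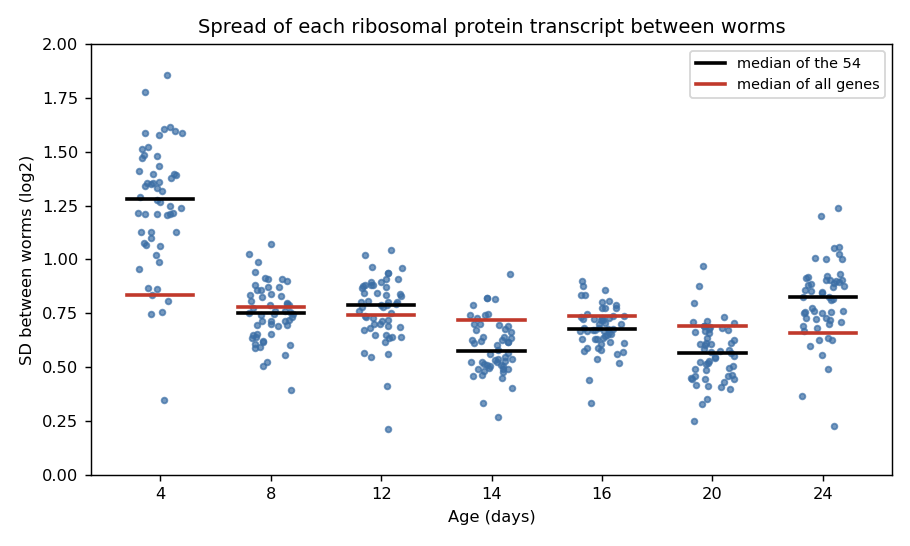
SD between worms of each of the 54 transcripts (log2) by age in days, with the median of the 54 in black and the median of all genes in red. The black bar stands at 1.28 against 0.83 for the red one at day 4 and below the red bar at days 8, 14, 16 and 20. It is slightly above the red bar at day 12 (0.79 against 0.74) and above it at day 24 (0.83 against 0.66).

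Within an age, pairs of ribosomal transcripts had a median Pearson r over worms of 0.857 at day 4, 0.677 at day 8, 0.799 at day 12, 0.706 at day 14, 0.700 at day 16, 0.596 at day 20 and 0.830 at day 24 (1431 pairs). The values of a pair share an array and the pool, and these are given as a description. The mean of the 54 carried 79.6% of their variance between worms at day 4, 62.5% at day 8 and 55.2% at day 20. With age means removed, the median r of a gene with the mean of the other ribosomal genes was 0.870 over all worms, up to 0.941 for rps-7. It was lowest for rps-24 (0.168), rpl-22 (0.335), rpl-12 (0.565), rpl-17 (0.647) and rpl-7A (0.736). The stalk-base gene rpl-12 thus had a clear course over age and followed the others less closely from worm to worm.

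Outside the 54, the genes most like their mean were mostly other ribosomal protein genes. Over all worms, with age means removed, the highest r were those of rpl-35A (0.930), rpl-24 (0.925), rpl-32 (0.919), rpl-35 (0.910), ubq-2 (0.909), rpl-30 (0.893), rpl-28 (0.891), ZC190.8 (0.885), ZK218.1 (0.879) and rpl-34 (0.868). All but ZC190.8 and ZK218.1, which have a sequence name only, are ribosomal protein genes, and ubq-2 encodes ubiquitin fused to one. Of 18835 genes, 90% lay between -0.306 and 0.297. Of the 100 most alike, 23 were on a list of 28 further ribosomal protein genes, which does not hold every such gene of the array.

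The 28 listed genes were also lower at day 8. Between days 8 and 4, 18 of the 28 fell and 0 rose, with a median of -0.98, against 6.14% of all genes that fell. The most negative were rpl-26 (-1.47 ± 0.28, limma, adjusted p = 4.65e-05) and rpl-39 (-1.36 ± 0.33, adjusted p = 0.00223), whose protein lines the exit tunnel, and the least were rpl-42 (0.18 ± 0.41, adjusted p = 0.847) and rpl-11.2 (-0.19 ± 0.46, adjusted p = 0.853). Between days 24 and 4, 0 of the 28 were called by limma, against 16.5% of all genes in either direction. Their mean per worm followed that of the 54 with r of 0.97 at day 8, 0.94 at day 12, 0.95 at day 14, 0.93 at day 16, 0.92 at day 20 and 0.98 at day 24, given as a description since both come from the same arrays. At day 4 r was 0.98 over all 13 worms, 0.93 within the 7 low and 0.90 within the 6 high worms.

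The pair rpl-11.1 and rpl-11.2 encodes near-identical forms of one protein and parted with age. The age means of rpl-11.1, which is among the 54, were 0.83, -0.30, -0.69, -0.39, -0.57, -0.18 and -0.11 over the 7 ages, and those of rpl-11.2 were -0.41, -0.60, 0.82, 1.46, 1.12, 1.28 and 0.95. Between days 12 and 8 rpl-11.2 rose by 1.42 ± 0.42 (limma, adjusted p = 0.0122), while rpl-11.1 differed by -0.39 ± 0.26 (adjusted p = 0.356). The difference of rpl-11.1 minus rpl-11.2 was above 0 in 3 of 9 worms at day 24, 1 of 14 at day 20 and 3 of 17 at day 12, against 9 of 17 at day 8 and 11 of 13 at day 4. The pair was singled out after its values were seen, so the difference carries no test, and near-identical copies may share signal between probes.

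Several tissue lists were also lower at day 12 than at day 8, and their part in the values of this pair was not tested. Of 34 germline genes 19 fell, of 31 oocyte and eggshell genes 22 fell, and of 39 intestine genes 22 fell, against 7.83% of all genes. The intestine mean per worm was -1.37 ± 0.81 at day 12 and -0.23 ± 0.96 at day 8 (SD, n = 17 each), the oocyte mean -0.40 ± 0.54 at day 12 and 0.33 ± 0.35 at day 8, and the germline mean -0.71 ± 0.51 at day 12 and -0.06 ± 0.17 at day 8.

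**Figure D5:**
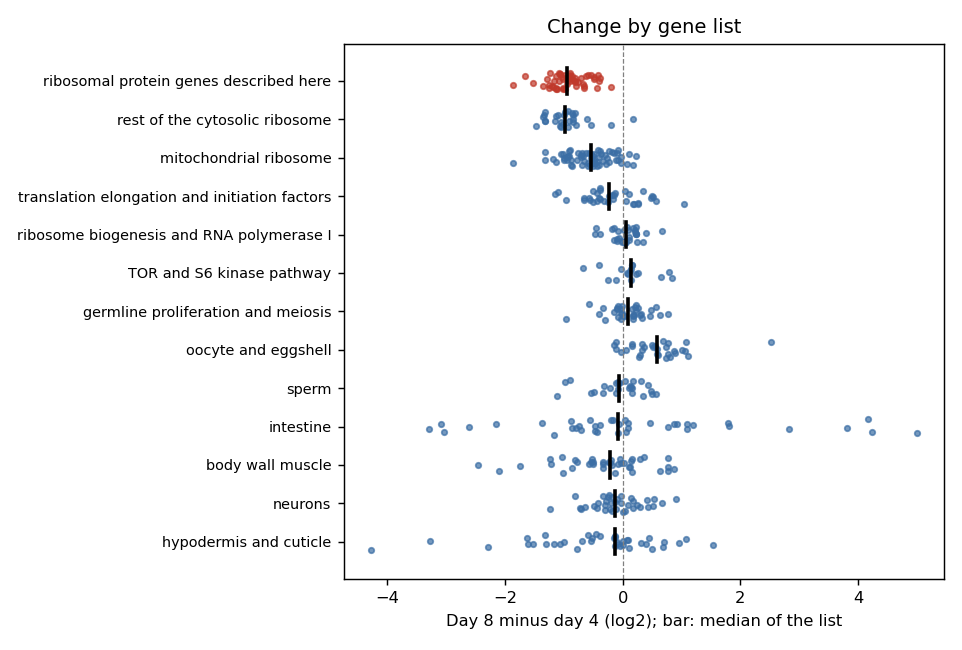
Difference between days 8 and 4 (log2) for each measured gene of 13 lists, 1 point per gene, with a black bar at the median of each list and the 54 ribosomal protein genes in red. The 54 and the other cytosolic ribosomal genes centre on -0.94 and -0.98, the mitochondrial ribosomal genes on -0.54, and translation factors on -0.24, while ribosome biogenesis genes centre on 0.06.

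The proteins of the mitochondrial ribosome, which makes the few proteins encoded in mitochondrial DNA, are products of separate nuclear genes. Of 65 measured, 33 fell and 0 rose between days 8 and 4, with a median of -0.54, against 6.14% of all genes that fell. The list was led by mrps-23 (-1.87 ± 0.25, limma, adjusted p = 8.07e-09) and mrpl-49 (-1.32 ± 0.20, adjusted p = 1.86e-07). At day 24, 22 of the 65 were lower than at day 4 and 1 higher, beside 1 lower and 0 higher among the 54 cytosolic genes. Of all genes 8.14% were lower and 8.35% higher. The mean per worm of the mitochondrial list was -0.16 ± 0.21 at day 24 (n = 9) and -0.32 ± 0.21 at day 8 (n = 17), against 0.24 ± 0.47 at day 4 (n = 13). So the mitochondrial mean was below its day 4 level at day 24, while the cytosolic mean was close to its own. This difference between lists was not tested.

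Few genes that act with the ribosome or build it passed the test, beside 6.14% of all genes that fell and 5.21% that rose. Of 35 elongation and initiation factors, 3 fell and 0 rose between days 8 and 4, with a median of -0.24. The initiation factor gene iff-1 fell by 1.16 (SE 0.28, limma, adjusted p = 0.00254), while the elongation factor gene eef-1A.2 stood at 1.04 ± 0.40 (adjusted p = 0.0787). Of 30 genes of ribosome biogenesis and RNA polymerase I, 1 fell and 1 rose, with a median of 0.06. The gene that rose was larp-1 (0.40 ± 0.14, adjusted p = 0.0466), whose mammalian counterpart binds messenger RNAs of ribosomal proteins, and ruvb-2, an assembly factor ATPase, fell by 0.46 (SE 0.16, adjusted p = 0.0475). Of 17 genes of the TOR and S6 kinase pathway, which controls ribosome production, 1 rose and 0 fell, and rsks-1, the S6 kinase itself, stood at -0.67 ± 0.37 (adjusted p = 0.266).

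Tissue lists moved between the same ages, in various directions, while 5.21% of all genes rose and 6.14% fell. On the oocyte and eggshell list 9 of 31 rose and 0 fell, with a median of 0.58. On the muscle list 2 of 39 rose and 10 fell, of 39 hypodermis and cuticle genes 2 rose and 13 fell, and of 39 intestine genes 8 rose and 7 fell. Of 34 germline genes 1 rose and 0 fell, of 37 neuronal genes 2 rose and 3 fell, and of 27 sperm genes 0 rose and 2 fell. The oocyte mean per worm was 0.33 ± 0.35 at day 8 (n = 17), against -0.25 ± 0.47 at day 4 (n = 13), the direction opposite to that of the ribosomal genes.

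Within an age, the r of the oocyte mean with the ribosomal mean was -0.09 at day 8, 0.25 at day 12, 0.27 at day 14, 0.19 at day 16, -0.36 at day 20 and 0.17 at day 24. For the mitochondrial ribosome r was 0.39, 0.39, 0.38, 0.07, -0.07 and 0.38 over the same ages. For muscle genes it was -0.27, 0.06, -0.27, -0.00, 0.59 and 0.09, and the 0.59 of day 20 became 0.20 without the 2 farthest worms. The intestine list gave higher values, with r of 0.14, 0.66, 0.21, 0.55, 0.57 and -0.17. Without the 2 worms farthest from the median of the age, these were 0.22, 0.47, 0.24, 0.85, 0.25 and 0.27, highest at day 16. For the number of probes with no value it was -0.17, 0.06, -0.10, -0.16 and -0.14 over days 8 to 20 and -0.74 at day 24, where there were 9 worms. Over all 13 worms aged 4 days r was -0.63 for the oocyte list, 0.66 for the mitochondrial ribosome, -0.60 for muscle, 0.40 for intestine and 0.41 for probes with no value. Without the 2 farthest worms these were -0.24, 0.45, -0.25, 0.30 and 0.14. At day 4 r was also taken within the 7 low and within the 6 high worms. It was 0.45 and -0.56 for the oocyte list, 0.59 and 0.29 for the mitochondrial ribosome, -0.47 and -0.37 for muscle, -0.52 and 0.43 for intestine, and 0.47 and -0.09 for probes with no value. These r come from the same arrays and are descriptions. The part of any of these lists in the day 8 fall was not tested.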

How the data were processed

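Each deposited number is a log ratio of 1 probe on 1 array, taken as log2 of worm over pool. Per the submitters' processing notes the authors used limma. No source used here gives the background correction, within-array normalization, log base or direction. Missing values (0.537%) were left missing. Probes of a gene were averaged, and names came from RefSeq's WBcel235 table (17917 of 18889 genes and all 54 ribosomal protein genes matched).

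Age was fitted as a factor over all arrays with limma 3.58.1 in R 4.3.3. Calls were made where the p, adjusted over all genes by Benjamini-Hochberg, was under 0.05. A line in days, each gene minus the mean of the other ribosomal genes, and absolute deviations scaled for group size were fitted likewise. The steps were tested on simulated data.

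The genes, lists, tests and alternatives were chosen with earlier results of these data known. Named were the 6 most and 6 least negative members at day 8, every departing gene, and the extremes of each comparison and list. Genes named by place in the ribosome and the rpl-11.2 gene's full course were added after values were seen. Ratios against a shared pool give no level of one gene against another. Precision is limited by the number of arrays.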

Additional observations from a re-analysis of the deposited data

How the results depend on the processing

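No paired analysis was possible because the worms' labels carry no replicate number shared between ages. Apart from 2 single genes, no result reversed its direction under the alternatives run for it (among quantile normalization, array weights, 1 weight per age, complete probes, probes fitted separately, only the ages compared, the median worm, and leaving out each worm), and not every one was run for each result. Between median worms rps-10 was 0.02 higher at day 8 than at day 4, against its difference of -0.38. For rpl-22, 1 of the 2 probes differed by 0.35, against -0.54 for their mean. The counts against the pool, at days 12 to 20 against day 4, at days 14 to 24 against day 8, and between days 14 and 12 had no alternative run. The 34 genes lower at day 8 than at day 4 became 41 after quantile normalization, 29 with array weights, 25 with 1 weight per age, 38 with complete probes and 9 with the ages of the contrast alone. Without each worm in turn they were 20 to 44, and the median difference lay between -1.09 and -0.78. It was -0.75 between the median worms of both ages, with 53 of 54 genes negative. The 10 genes lower at day 8 than at days 4 and 12 became 17 with complete probes and 6 with those ages alone, and 7 to 25 without each worm. The 1 gene higher at day 12 than at day 8 became 0 with probes fitted separately, where every probe of a gene had to pass: the 2 probes of rpl-12 differed by 0.61 and 0.77, and 1 passed. The 1 gene called between days 24 and 4 became 2 after quantile normalization or with complete probes and 0 with those ages alone. With deviations from the median worm, the genes less spread than at day 4 became 0 in place of 17 at day 8, 3 in place of 20 at day 12, 24 in place of 43 at day 14, 10 in place of 28 at day 16, 17 in place of 35 at day 20 and 0 in place of 9 at day 24. The 10 departing genes became 9 against the median of the others and 8 with 1 weight per age. Fewer probes were tested with complete probes (16181) and fewer worms with the ages alone, and the cause of the other shifts was not tested. Weights per age, the median worm and the medians for days 12 to 24 were added after the data were seen. At day 24, 0 of the 54 genes had a worm apart from the others by Dixon's test, and ages with over 10 worms were not tested this way. Signal over background was not used here, so dim probes could not be told from stable transcripts.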
